A study of Rattus norvegicus with 7 samples.

Results

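Transcripts of 30 lysosomal genes were followed in rat synovium, the membrane and soft tissue around the joint space. The 30 genes were taken by symbol from a fixed list and all 30 were found among the 20660 genes of the table. They comprised 11 soluble enzymes and activators, 6 membrane proteins, 12 genes of the proton pump and the transcription factor Tfeb. All 30 passed the filter on low counts, and 14054 genes in total were tested. The tissue came from male SPF rats aged 3 months. The MIA group was 4 rats, numbered 1 to 4, that received 0.1 mL of MIA at 10 mg/kg into the right knee joint, and the control group was 3 untreated rats, numbered 2 to 4. Tissue was taken 4 weeks after treatment, and each library represented 1 rat. MIA is left as an abbreviation in the labels; in work on knee osteoarthritis it commonly means monosodium iodoacetate, which blocks glycolysis. No vehicle-injected group was analysed here, so effects of the injection and of MIA cannot be told apart. The comparison asks how lysosomal transcripts of injected joints differed from those of untreated joints.

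Lysosomes are acidic organelles in which hydrolases break down proteins, lipids, glycoproteins and the glycosaminoglycans of cartilage and synovial matrix. The enzymes reach them through the mannose 6-phosphate pathway and work at a low pH that is kept up by the V-type proton ATPase, an enzyme with a cytosolic V1 part that splits ATP and a membrane V0 part that carries protons. Heavily glycosylated membrane proteins line the organelle. The transcription factor Tfeb, which is held in the cytosol when mTORC1 is active at the lysosome, is known to raise the transcription of many lysosomal and autophagy genes through short palindromic promoter elements with the core CACGTG. In joints, macrophages, synovial fibroblasts and osteoclasts are rich in lysosomes or in the proton pump.

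The promoter sequences of the members that carry such an element are shown because the group holds both Tfeb and the genes it is known to act on. In the RefSeq promoter table (build GRCr8, from 250 bases before to 50 bases after each start), 23 of the 30 members were matched. The core CACGTG was present in 5 of these 23 promoters, against 6.42% of all 33469 promoters of the same length. The longer TCACGTGA was present in 3 of 23, against 0.777% of all, and the same motif with G before and C after it in 0 of 23, against 0.233% of all. The 3 motifs read the same on both strands and are nested, so every match to a longer one is also a match to the core. In the windows below, written on the coding strand, capitals mark the matches, with the longer match in capitals where there is one.
Lamp1, chr16:83075075-83075266 on the minus strand, from base -203 to base -12: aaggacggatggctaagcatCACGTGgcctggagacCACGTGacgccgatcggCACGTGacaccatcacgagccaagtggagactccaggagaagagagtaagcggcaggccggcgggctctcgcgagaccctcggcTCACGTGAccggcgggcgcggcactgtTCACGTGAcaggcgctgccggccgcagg
Cln3, chr1:190597941-190598015 on the minus strand, from base -86 to base -12: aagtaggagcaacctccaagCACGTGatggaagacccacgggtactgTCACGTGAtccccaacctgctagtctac
Mcoln1, chr12:6358216-6358288 on the plus strand, from base -42 to base 31: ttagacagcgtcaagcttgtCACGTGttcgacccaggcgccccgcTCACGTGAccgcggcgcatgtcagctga
Glb1, chr8:122963598-122963643 on the plus strand, from base -120 to base -75: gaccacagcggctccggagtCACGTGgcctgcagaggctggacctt
Cd63, chr7:1921934-1921979 on the plus strand, from base -210 to base -165: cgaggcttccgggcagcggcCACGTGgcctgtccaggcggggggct
A match describes these letters only and is no evidence of binding. The counts were made on another build, Rnor_6.0.

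Total counts were 13870822 to 16261089 per library. The libraries differed in tissue makeup: 33 matched skeletal muscle markers took 18.7% to 21.2% of the counts in control libraries and 0.184% to 6.51% in MIA libraries, and 16 markers of synovial lining and fibroblasts took 1.05% to 1.53% and 5.18% to 10.5%. Prg4, which encodes the lubricin of synovial lining cells, was present in every library, at 1496, 3654 and 2009 CPM in control 2 to 4 and at 410.0, 4842, 185 and 1709 CPM in MIA 1 to 4; it is no member and was chosen as a check of the tissue. CPM, counts scaled to a common library size, are relative to library totals scaled with edgeR's TMM factors. In such a mixed tissue, fewer cells of a type and less RNA per cell cannot be told apart.

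Of the 30 members, 9 were higher and 3 were lower in MIA by edgeR's quasi-likelihood test, with a threshold of 0.05 on the Benjamini-Hochberg adjusted p over 14054 genes, and 18 did not pass. Over all genes tested, 21.3% were higher and 19.6% lower. The members' count of higher calls was somewhat above, and that of lower calls below, what these shares give for 30 genes, and neither difference was tested. At least 2-fold higher and called were 7 members, against 15.6% of all genes. The 4 MIA libraries lay above all 3 control libraries for 13 members, against 24.8% of all genes, and below them for 3 members, against 24.4%. The median log2 change, MIA minus control, was 0.50 over the members and 0.07 over all genes. Scaling decided how these counts split. With library totals 20 members were higher and 1 lower, and with a scaling on 19 stromal and vascular genes 2 (Glb1 and Gusb) were higher and 5 lower, with a member median of -0.13. These scalings moved the median of all genes to 0.51 and -0.54. The member median minus that of all genes was 0.43, 0.43 and 0.41 under TMM, totals and the stromal scaling. A scaling shifts all genes nearly alike, so it can hardly change this difference. The difference was 0.24 without MIA 2 and 0.24 without the filter on low counts. It was 0.11 with the muscle marker level as a covariate and -0.27 with the macrophage marker level. Neither marker level overlapped between the groups, so these fits cannot part marker level from group. Without control 3 and without control 4, 4 and 5 members were higher, and without control 3 only 1 was lower. Without MIA 2 the member median was 0.27.

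**Figure D1:**
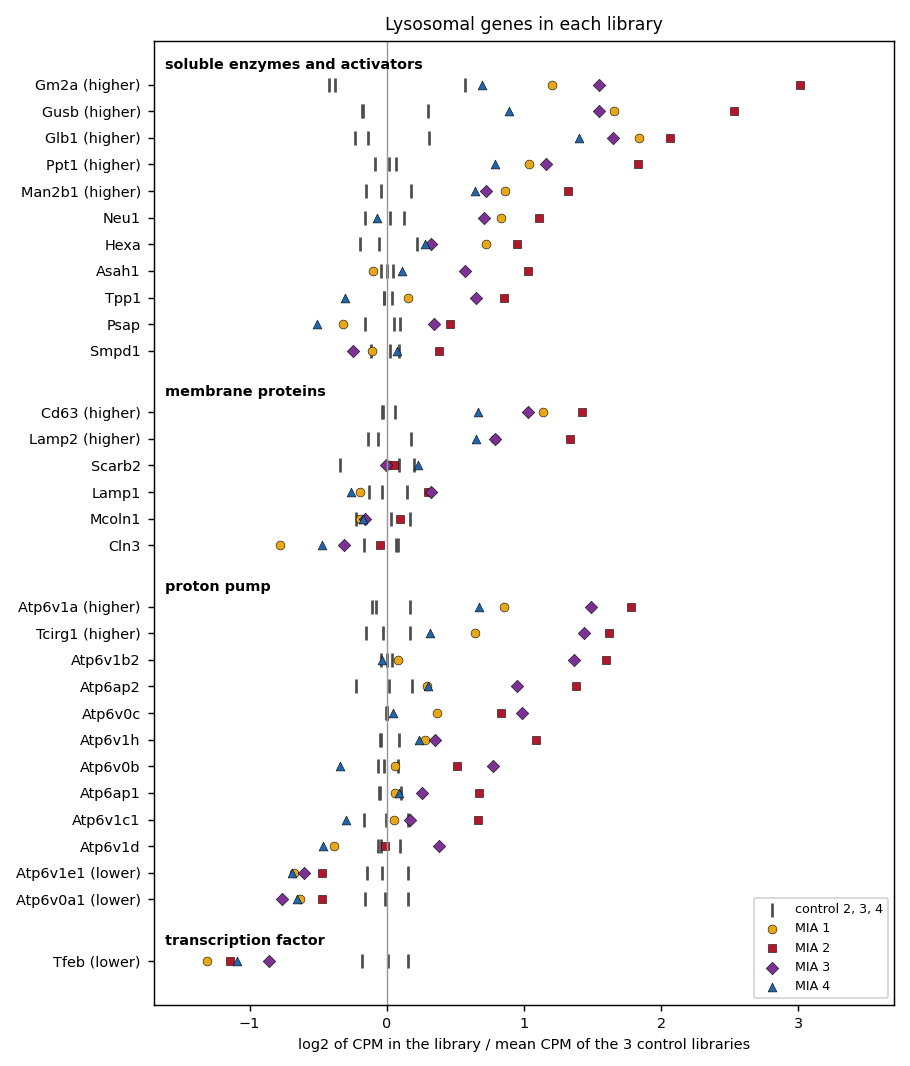
Level of each of the 30 members in each library, as log2 of CPM over the mean CPM of the 3 control libraries (x axis), with 1 line per member, grouped by class and marked where called higher or lower. Ticks are control libraries and coloured symbols the MIA libraries; the red squares of MIA 2 are highest among the MIA libraries for 24 members, and for Tfeb all 4 MIA libraries lie below the controls.

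The enzymes that cut sugars from glycoproteins and matrix glycosaminoglycans included the member with the smallest p, Glb1. Glb1, the lysosomal beta-galactosidase, stood at 41.3, 30.3 and 28.3 CPM in control 2 to 4 and at 119, 139, 104 and 87.9 CPM in MIA 1 to 4. The groups lay far apart, with the lowest MIA library above every control library. It was 3.38-fold higher in MIA (log2 change 1.76 ± 0.22 SE, adjusted p = 0.00146). Gusb, the beta-glucuronidase that removes glucuronic acid from glycosaminoglycans, stood at 23.7, 17.1 and 17.0 CPM in control and at 60.7, 111, 56.4 and 35.8 CPM in MIA, 3.42-fold higher (log2 change 1.77 ± 0.37, adjusted p = 0.00729). MIA 2 was high and MIA 4 low within the group, which did not overlap with the controls. Man2b1, the lysosomal alpha-mannosidase, was 87.7 ± 10.2 CPM (SD, n = 3) in control and 165 ± 37.5 (SD, n = 4) in MIA, a log2 change of 0.91 ± 0.22 with an adjusted p of 0.0122. Glb1 and Gusb were called without any 1 of the 7 libraries, whereas Man2b1 was not called without control 3 (adjusted p = 0.0633) or control 4 (adjusted p = 0.0572). Hexa, the alpha subunit of beta-hexosaminidase, had a log2 difference of 0.59 ± 0.23 with an adjusted p of 0.0664, and its groups did not overlap. Neu1, the sialidase that trims terminal sialic acids, had 0.71 ± 0.27 with an adjusted p of 0.0661. Its lowest MIA library, MIA 4, lay within the control range, and without that library the log2 change was 0.90 with an adjusted p of 0.00968. Hexa passed without MIA 3 (log2 change 0.65, adjusted p = 0.048).

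The enzymes and activators of sphingolipid breakdown named next differed in the size of their change, and of these only Gm2a passed the test. Gm2a, the activator that presents the ganglioside GM2 to beta-hexosaminidase, stood at 141, 70.9 and 73.2 CPM in control and at 219.5, 767, 278 and 154 CPM in MIA. MIA 2 was far above the other libraries, and MIA 4 was close to control 2. Its values are given in every library because of this spread, a choice made after they were seen. Gm2a was 3.73-fold higher (log2 change 1.90 ± 0.59, adjusted p = 0.032), and not called without control 3 (adjusted p = 0.115) or control 4 (adjusted p = 0.118). Smpd1, the acid sphingomyelinase, changed least of the soluble class, with 122, 117 and 106 CPM in control and 107, 149.6, 97.2 and 121 CPM in MIA. The groups overlapped and the log2 difference was 0.04 ± 0.19 (adjusted p = 0.871). Psap, the precursor of the saposins, had the highest level per gene length of the 30 members, at 560.0 ± 76.3 FPKM (SD, n = 3) in control and 789.5 ± 271 FPKM (SD, n = 4) in MIA. FPKM are the deposited counts per gene length and library total, without TMM scaling. Psap was chosen here after its values were seen: 1823, 1532 and 1768 CPM in control and 1370.0, 2345, 2168 and 1201 CPM in MIA. The MIA libraries lay on both sides of the controls, and the log2 difference was 0.05 ± 0.36 (adjusted p = 0.919). Asah1, the acid ceramidase, had a log2 difference of 0.47 ± 0.27 (adjusted p = 0.198).

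Both enzymes whose loss causes neuronal ceroid lipofuscinosis in humans had higher means in MIA, and 1 of them passed the test. Ppt1, which removes palmitate from proteins, stood at 46.2, 41.6 and 44.5 CPM in control and at 90.5, 157, 98.4 and 76.3 CPM in MIA. Every MIA library lay above every control library, by 2.39-fold on average (log2 change 1.26 ± 0.26, adjusted p = 0.00661), and the call held without any 1 library. Tpp1, a tripeptidyl peptidase, had a log2 difference of 0.40 ± 0.28 (adjusted p = 0.267). Over the 11 soluble members, 5 were higher and 0 lower, against 21.3% and 19.6% of all genes, the fitted difference was positive for all 11, and the median was 0.71. The count of higher members was 9 with library totals and 2 with the stromal scaling, and 3 without control 3 or control 4.

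Among the 6 membrane proteins, Cd63 and Lamp2 were higher and 0 were lower, against 21.3% and 19.6% of all genes. The other 4 did not pass, and the median log2 difference was 0.07, equal to that of all genes. Cd63, a tetraspanin of late endosomes, lysosomes and exosomes, stood at 274, 258 and 256 CPM in control and at 577, 702, 535 and 417 CPM in MIA. The controls were nearly level, and every MIA library was above them, by 2.13-fold on average (log2 change 1.09 ± 0.25, adjusted p = 0.01). Lamp2, a structural protein of the lysosomal membrane whose isoform A is the receptor of chaperone-mediated autophagy, stood at 124, 105 and 99.7 CPM in control and at 189, 276, 189 and 172 CPM in MIA. It was 1.89-fold higher (log2 change 0.92 ± 0.22, adjusted p = 0.0131). The related Lamp1 stood at 694, 611 and 573 CPM in control and at 546, 771, 782 and 523 CPM in MIA. MIA 2 and MIA 3 were above and MIA 1 and MIA 4 below the controls, and the log2 difference was 0.07 ± 0.26 (adjusted p = 0.857). Cln3, a membrane protein whose loss causes juvenile neuronal ceroid lipofuscinosis in humans, stood at 22.8, 19.2 and 22.5 CPM in control and at 12.5, 20.8, 17.3 and 15.5 CPM in MIA. Of the MIA libraries only MIA 2 overlapped with the controls, and the log2 difference was -0.38 ± 0.20 (adjusted p = 0.167). Scarb2, a receptor that sorts cargo to lysosomes, and Mcoln1, a calcium channel, had log2 differences of 0.08 ± 0.17 (adjusted p = 0.743) and -0.10 ± 0.16 (adjusted p = 0.63). Without control 3 the adjusted p was 0.0502 for Cd63 and 0.0618 for Lamp2, and without control 4 it was 0.0651 for Lamp2. With the stromal scaling neither was called (adjusted p = 0.294 and 0.406), whereas Cln3 and Mcoln1 were lower (adjusted p = 0.0193 and 0.0436). Of the genes with a CACGTG in their promoter window, Glb1 and Cd63 were called higher, and Lamp1, Cln3 and Mcoln1, whose windows hold the longer TCACGTGA, did not pass.

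Of the 12 proton pump members 2 were higher, 2 were lower and 8 did not pass, close to the shares of all genes (21.3% higher and 19.6% lower), with a median log2 difference of 0.42. In the V1 part, Atp6v1a, the catalytic A subunit that splits ATP, stood at 40.0, 48.5 and 40.9 CPM in control and at 78.1, 148, 121 and 68.6 CPM in MIA. The lowest MIA library was above the highest control, and the gene was 2.41-fold higher (log2 change 1.27 ± 0.29, adjusted p = 0.00979), also without any 1 library. Its partner Atp6v1b2, the B subunit of the same ring, stood at 61.3, 63.1 and 64.9 CPM in control and at 66.8, 191, 163 and 61.5 CPM in MIA, values shown after they were seen. MIA 2 and MIA 3 were high, while MIA 1 and MIA 4 were close to the controls, and the log2 difference was 0.93 ± 0.42 (adjusted p = 0.105). Atp6v1e1, an E subunit of the peripheral stalks, stood at 105, 129 and 113 CPM in control and at 72.7, 83.4, 76.1 and 71.8 CPM in MIA. The MIA libraries were close together and all below the controls, 1.53-fold lower (log2 change -0.61 ± 0.15, adjusted p = 0.0143). Atp6v1d, the D subunit of the central stalk, changed least of the pump, with 78.1, 87.4 and 79.4 CPM in control and 62.5, 81.0, 106 and 59.3 CPM in MIA. Its groups overlapped and the log2 difference was -0.08 ± 0.22 (adjusted p = 0.795). Atp6v1h, a regulatory subunit, and Atp6v1c1, a C subunit, had log2 differences of 0.53 ± 0.23 (adjusted p = 0.098) and 0.19 ± 0.23 (adjusted p = 0.532).

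In the V0 part the 2 members that encode the proton-path subunit a moved in opposite directions. Atp6v0a1, the a1 isoform, stood at 153, 136 and 124 CPM in control and at 88.9, 99.3, 81.2 and 87.5 CPM in MIA. All MIA libraries lay below all controls, 1.54-fold lower (log2 change -0.63 ± 0.16, adjusted p = 0.0156). Tcirg1, the a3 isoform, which osteoclasts place in their ruffled border to acidify bone, stood at 49.9, 43.6 and 40.0 CPM in control and at 69.5, 137, 121 and 55.3 CPM in MIA. MIA 2 and MIA 3 were again highest, and all 4 MIA libraries were above the controls, 2.15-fold higher (log2 change 1.10 ± 0.33, adjusted p = 0.0272). Atp6v0c, the main proteolipid of the rotating ring, was nearly level in control at 183, 182 and 182 CPM and ranged from 188 to 361 CPM in MIA, shown after the values were seen. The groups did not overlap, and the log2 difference was 0.61 ± 0.26 (adjusted p = 0.0938). Atp6ap2, the accessory protein also known as the prorenin receptor, had 0.81 ± 0.29 (adjusted p = 0.0565). The other ring proteolipid Atp6v0b and the accessory protein Atp6ap1 had 0.31 ± 0.26 (adjusted p = 0.357) and 0.29 ± 0.21 (adjusted p = 0.283).

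Calls in the pump depended on single libraries and on the scaling. Atp6v1e1 was not called without control 3 (adjusted p = 0.0713), Atp6v0a1 without control 2 (0.0513) or control 3 (0.0574) and Tcirg1 without control 2 (0.0582), control 3 (0.0902) or control 4 (0.103), all as adjusted p. Without MIA 4, in contrast, Atp6v1b2 (adjusted p = 0.0429), Atp6v0c (0.0405) and Atp6ap2 (0.0367) passed, so that 5 pump members were higher, and Atp6ap2 also passed without MIA 1 (0.0374). With library totals 8 pump members were higher, and Atp6v1e1 and Atp6v0a1 were no longer lower, with log2 differences of -0.17 (adjusted p = 0.405) and -0.20 (adjusted p = 0.374). With the stromal scaling 0 pump members were higher.

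Isoform shares within a library do not depend on scaling. In the subunits a, d and e they differed between the groups without overlap for Atp6v0a1, Tcirg1, Atp6v0d1, Atp6v0d2, Atp6v0e1 and Atp6v0e2. In the V1 subunits B, C, E and G the shares overlapped, and Atp6v1b2, Atp6v1c1, Atp6v1e1 and Atp6v1g1 each held at least 94.7% in every library. The a1 isoform made up 63.7%, 62.9% and 63.5% of the summed FPKM of subunit a in the control libraries 2 to 4, against 40.8%, 30.5%, 29.7% and 45.8% in MIA 1 to 4. The share of Tcirg1 was 29.6%, 28.7% and 29.3% in control and 45.6%, 60.3%, 63.2% and 41.3% in MIA. The controls lay within 1 percentage point of each other for both isoforms, and in MIA 2 and MIA 3 Tcirg1 exceeded a1. The Golgi isoform Atp6v0a2 held 6.24% to 7.70% in control and 6.88% to 13.3% in MIA, and its transcript was higher (log2 change 0.69 ± 0.19, adjusted p = 0.0202; not called without control 2, at 0.056, or control 4, at 0.0917). Atp6v0d2, the d isoform of osteoclasts and some macrophages, had 0, 1 and 0 counts in control and 7, 306, 273 and 36 counts in MIA. It held 0%, 0.202% and 0% of subunit d in control and 0.700%, 25.3%, 28.0% and 3.62% in MIA, the rest being the general isoform Atp6v0d1. It passed the filter on low counts through the MIA libraries alone, so its adjusted p of 0.0107 is given as a description. It failed that filter without MIA 2, MIA 3 or MIA 4 and with at least 10 counts asked for in every library. Its adjusted p was above the threshold without control 3 (0.0514) or control 4 (0.0502) and with limma-voom (0.117). Atp6v0e1 held 46.4%, 44.4% and 36.9% of subunit e in control and 82.7%, 80.4%, 73.8% and 80.2% in MIA. Its transcript was higher (log2 change 0.93 ± 0.24, adjusted p = 0.0168), while that of Atp6v0e2 was lower (log2 change -1.37 ± 0.33, adjusted p = 0.0118). The call of Atp6v0e1 was lost without control 3 (0.0622) or control 4 (0.0795). Atp6v0a2 and Atp6v0e1 were named after their values were seen, as partners in the shares. Of the other pump subunits, 13 genes, 9 were tested. Of these 9, 3 were higher, Atp6v0d2 included, and 1 was lower, against 21.3% and 19.6% of all genes. Without control 3, 1 was higher, and without control 4, 0 were. The shares themselves were not tested.

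**Figure D2:**
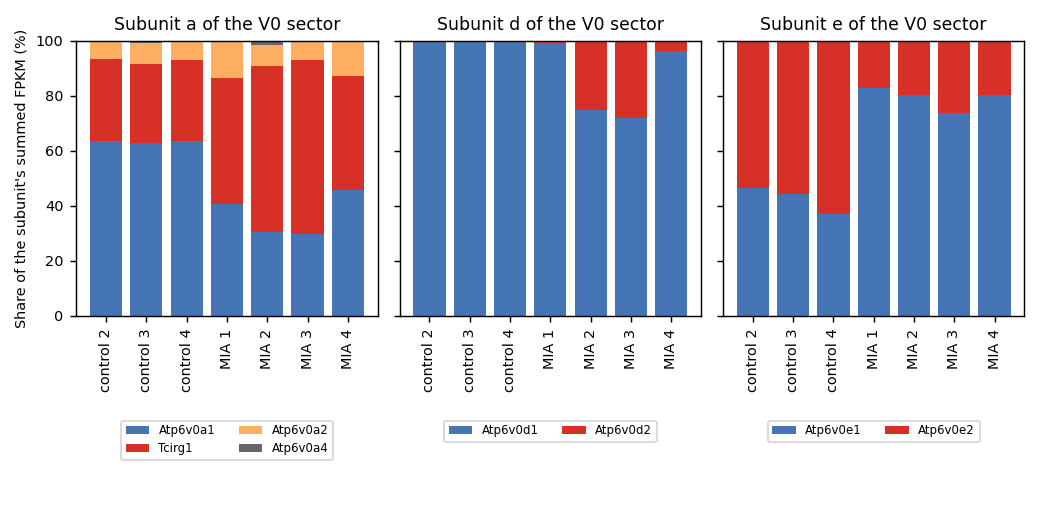
Share of each isoform in the summed FPKM of subunits a, d and e of the V0 part, in percent, as stacked bars for the 3 control and 4 MIA libraries. Atp6v0a1 holds 62.9% to 63.7% of subunit a in control and 29.7% to 45.8% in MIA, Atp6v0d2 reaches 25.3% and 28.0% in MIA 2 and MIA 3, and Atp6v0e1 is the larger share of subunit e in MIA.

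Tfeb was lower in all 4 MIA libraries, at 99.9, 79.1 and 90.2 CPM in control and at 36.1, 40.5, 49.4 and 42.0 CPM in MIA. The highest MIA library was well under the lowest control, and the level was 2.13-fold lower (log2 change -1.09 ± 0.16, adjusted p = 0.00213). Tfeb was called without any 1 library, with library totals (log2 change -0.65, adjusted p = 0.0283) and with the muscle marker level as a covariate (-1.01, adjusted p = 0.0402). Its relatives Tfe3 and Mitf had log2 differences of -0.09 (adjusted p = 0.735) and -0.53 (adjusted p = 0.157). The third relative, Tfec, was higher, with means of 1.02 ± 0.159 CPM in control (SD, n = 3) and 6.90 ± 4.24 CPM in MIA (SD, n = 4) and a log2 change of 2.75 ± 0.59 (adjusted p = 0.00808, and 0.0593 with limma-voom). These 3 were named after their values were seen. Transcript levels say nothing of where the Tfeb protein lies.

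A list of Tfeb's relatives and of genes tied to mTORC1 at the lysosome held, by count, more lower than higher genes. Of its 16 tested genes, 3 were higher and 6 were lower, against 21.3% and 19.6% of all genes, with a median of -0.42. The list includes the 3 relatives of Tfeb and other transcription regulators, so not all its genes sit on the lysosomal surface. Flcn, folliculin, which activates the Rag GTPases toward Tfeb, was lower (log2 change -1.19 ± 0.18, adjusted p = 0.00228), as were Lamtor2 of the Ragulator anchor (-1.21 ± 0.26, adjusted p = 0.00793) and Rragd, a Rag GTPase (-2.22 ± 0.59, adjusted p = 0.0184). With the muscle marker level as a covariate the log2 change was -0.44 for Rragd (adjusted p = 0.529) and -0.60 for Lamtor2 (0.205), whereas Flcn kept its call (-1.12, adjusted p = 0.042). That level did not overlap between the groups, so this fit cannot tell which genes follow muscle content and which the group. Rragd was not called without control 3 (0.0565) or control 4 (0.0658), and the list had 2 lower members without either, 3 without MIA 1, 4 without MIA 2 or MIA 4, and 1 higher member without any 1 control. Of 16 tested autophagy genes 0 were higher and 6 lower, against 21.3% and 19.6% of all genes, with a median of -0.34. The cargo receptor Sqstm1, also called p62, stood at 715, 729.7 and 849 CPM in control and at 237, 226, 314 and 279 CPM in MIA. The groups did not overlap, and the log2 change was -1.54 ± 0.23 (adjusted p = 0.00218). The cargo receptor Optn (-1.67 ± 0.27, adjusted p = 0.00299) and the initiating kinase Ulk1 (-0.71 ± 0.15, adjusted p = 0.00838) were also lower. The calls in both lists moved with the scaling. Their medians relative to all genes could hardly move with it, because a scaling shifts all genes nearly alike. With the macrophage marker level as a covariate these relative medians were -0.25 and -0.24. That was no trait of these lists. In the same fit the other hydrolases stood at -0.28, other membrane proteins at -0.24, other pump subunits at -0.30 and delivery genes at -0.20. In the first list 4 were higher and 3 lower with library totals and 1 and 11 with the stromal scaling, with medians of 0.03 and -1.05. Relative to all genes these medians were -0.48 and -0.50, against -0.49 under TMM. Among autophagy genes 3 were higher and 2 lower with library totals and 0 and 10 with the stromal scaling, with medians of 0.09 and -0.96. Relative to all genes they were -0.42 and -0.41, against -0.41 under TMM. Flcn, Lamtor2, Rragd, Sqstm1 and Optn stayed lower with library totals and Ulk1 did not (adjusted p = 0.163). Without control 3 and control 4, 3 and 4 autophagy genes were lower.

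Of 23 other hydrolases tested, 11 were higher and 1 was lower, against 21.3% and 19.6% of all genes, with a median of 0.90. These counts moved with the processing, to 17 and 0 with library totals, 0 and 1 with the stromal scaling and 1 and 0 with the muscle covariate. With the macrophage covariate they were 0 and 0. The list's median relative to all genes was then -0.28, against 0.83 under TMM. Arsb, which removes sulfate from dermatan and chondroitin sulfate, was higher (log2 change 1.19 ± 0.19, adjusted p = 0.00256). Gaa, the enzyme that degrades lysosomal glycogen, was lower (-0.86 ± 0.27, adjusted p = 0.0326). Its call was lost without any 1 of control 2, 3 and 4 and MIA 1, 2 and 4 (adjusted p from 0.0559 to 0.123). Without control 4 the list had 7 higher members. Of 16 other membrane proteins 2 were higher and 1 was lower, both under the shares of all genes, with a median of 0.20. With library totals 7 were higher and 0 lower, and with the stromal scaling 0 and 4. Laptm4b was higher (0.80 ± 0.19, adjusted p = 0.0106) and Lmbrd1, which takes part in lysosomal export of vitamin B12, was lower (-0.80 ± 0.20, adjusted p = 0.0137). Without control 2, MIA 1 or MIA 2, 1 membrane gene of this list was higher, and without control 3 or control 4, 0 were, with adjusted p of 0.0574 and 0.0595 for Laptm4b.

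Of 18 genes that deliver enzymes to lysosomes 4 were higher and 5 lower, near the shares of all genes (21.3% and 19.6%), with a median of -0.17. Among the adaptors of the mannose 6-phosphate receptors, Gga2 was higher (log2 change 1.19 ± 0.17, adjusted p = 0.00194) and Gga1 was lower (-0.93 ± 0.14, adjusted p = 0.00246). Sort1, the sorting receptor sortilin, was lower (-0.82 ± 0.16, adjusted p = 0.00624), and so was Vps33a of the tethering complex that fuses vesicles with lysosomes (-0.74 ± 0.17, adjusted p = 0.011, and 0.0528 without control 4). With library totals 7 were higher and 1 was lower, with the stromal scaling 0 and 10, and without control 4, 1 and 2. Without control 2 and control 3, 2 and 1 were higher, and without MIA 4, 3 were lower. Both scalings moved this list's median with that of all genes, to 0.27 and -0.78.

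**Figure D3:**
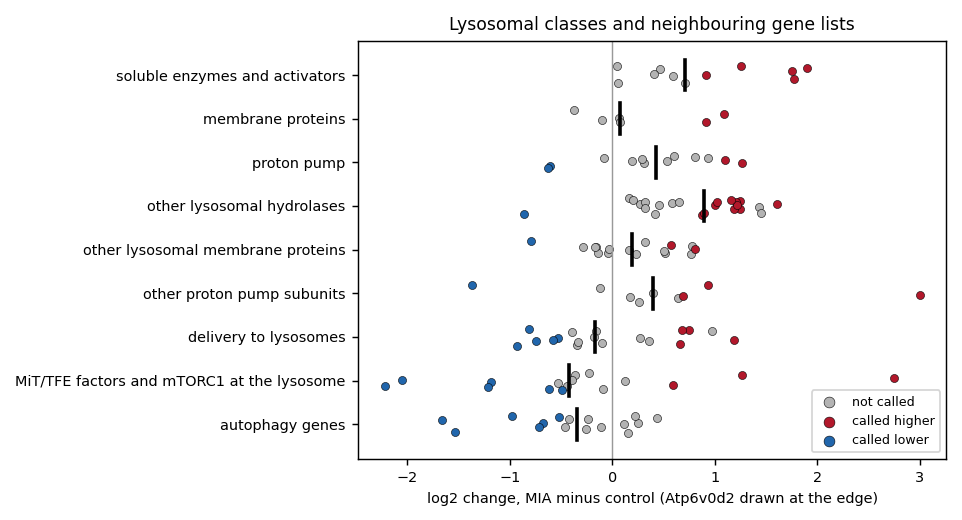
Log2 change, MIA minus control, of each tested gene in 3 member classes and 6 wider lists; 1 point is 1 gene, coloured by its call, and the black bars mark the median of each list. Hydrolases of both kinds lie mostly to the right of 0 and 11 of 16 autophagy genes to the left; Atp6v0d2, at 8.04, is drawn at the right edge.

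The 4 MIA libraries differed from each other in a way that most members shared. The highest of them was MIA 2 for 24 of the 30 members, against 28.1% of all genes tested, and for all 11 soluble members. MIA 2 and MIA 3 were the 2 highest for 20 members, against 18.5% of all genes, and for 11 of the 12 pump members. MIA 4 was the lowest for 21 members, against 23.2% of all genes. The summed level of the soluble class was 2607, 2172 and 2424 CPM in control 2 to 4 and 2511, 4464, 3377 and 2119 CPM in MIA 1 to 4. By this sum MIA 4 was under every control, but Psap made up much of it. The mean of log2(CPM + 1) over the 11 soluble members weighs each gene alike. It was 6.454, 6.195 and 6.245 in control and 7.004, 7.704, 7.112 and 6.667 in MIA. By this mean MIA 4 was above every control. The membrane proteins summed to 1204, 1099 and 1056 CPM in control and to 1422, 1875, 1621 and 1236 CPM in MIA, without overlap. The pump summed to 1005, 1034 and 960 CPM in control and to 1034, 1651, 1491 and 929 CPM in MIA, with MIA 1 at the top and MIA 4 just below the bottom of the control range. As a share of all counts, which amounts to scaling by library totals, the 30 members took 0.443%, 0.359% and 0.363% in control. In MIA they took 0.530%, 0.891%, 0.802% and 0.504%. By TMM-scaled CPM the members summed to 4916, 4384 and 4531 in control and to 5003, 8031, 6539 and 4325 in MIA. By that sum MIA 4 was below every control. By the mean of log2(CPM + 1) over the 30 members MIA 4 was above every control, at 6.424 against 6.397, 6.303 and 6.280.

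Marker transcripts of some cell types, but not of all, followed the order of these levels among the MIA libraries. Those of synovial lining and fibroblasts were lowest in MIA 3 (42199 CPM), and endothelial markers were highest in MIA 4 (1728 CPM). The 16 matched macrophage markers summed to 1059 to 1353 CPM in control and to 4430, 6239, 4340 and 2116 CPM in MIA 1 to 4. Of the 15 tested 14 were higher, against 21.3% of all genes, and Marco was at 0 in all controls. MIA 2 was highest and MIA 4 lowest there too. The 9 matched osteoclast markers summed to 137 to 154 CPM in control and to 441, 1332, 1427 and 478 CPM in MIA. Of these 9, 6 were higher and 0 lower, against 21.3% and 19.6% of all genes. The log2 change was positive for 7 of the 9, and the lowest was -2.04. MIA 2 and MIA 3 had the highest sums. These libraries were also highest for Atp6v0d2 and for 11 of the 12 pump members, Tcirg1 included. No osteoclast marker was at 0 in all controls. The 10 neutrophil markers summed to 13.6 to 17.9 CPM in control and to 610 CPM in MIA 3, with at most 68.1 CPM in the other MIA libraries. The 9 matched T cell markers summed to 44.1 to 61.1 CPM in control and to 121, 225, 160 and 75.4 CPM in MIA 1 to 4. That is the order of the soluble class, but 7 of the 8 tested T cell genes were highest in MIA 3. The 12 adipocyte markers summed to 2234 to 2819 CPM in control and to 616 to 1455 CPM in MIA. Muscle markers were lowest in MIA 2, and all 33 had a lower level in every MIA library than in every control, against 24.4% of all genes. Of these 33, 12 were called lower, against 19.6% of all genes, and 21 were not called. With the muscle marker level as a covariate 1 member was higher, Glb1 (log2 change 1.35, adjusted p = 0.0237), and 1 was lower, Tfeb, while 2051 of 14054 genes were called. With the macrophage marker level as a covariate 0 members and 15 genes in all were called. The macrophage sum of every MIA library was above that of every control, and the muscle marker level of every MIA library was below. The part of either marker list and that of the group therefore cannot be told apart here.

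**Figure D4:**
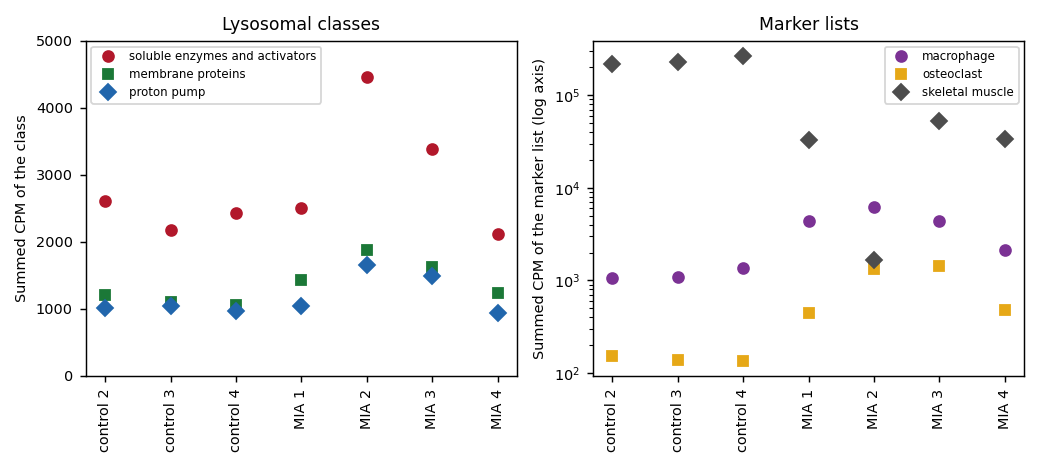
Summed CPM of the 3 member classes (left, linear axis) and of the macrophage, osteoclast and skeletal muscle marker lists (right, log axis) in each library, 1 point per list and library. MIA 2 and MIA 3 stand highest for the soluble class (4464 and 3377 CPM), the pump (1651 and 1491 CPM) and the osteoclast markers, and muscle markers are lowest in MIA 2.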

How the data were processed

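RNA from synovium of 7 rats, 3 control and 4 MIA, was sequenced from 1.5 µg per library (NEBNext Ultra kit, per the labels' protocols). HISAT2, HTSeq 0.11.2, DESeq2 1.26.0 and the genome build Rnor_6.0 are listed, without roles, in the submitters' processing notes. No source used here gives the strand setting or annotation. Counts of overlapping genes, or of genes with near-identical copies, are therefore uncertain. The authors' deposited table gives whole-number counts per gene and, per the file headers, FPKM; computed back, FPKM equal counts divided by gene length and column total for 18593 of 18593 genes (tolerance 1e-09). No 2 count columns were identical (0), 0 per-sample columns were left unused, and all 30 members matched a symbol.

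Counts were tested in R 4.3.3 with edgeR 4.0.16: filterByExpr (14054 of 20660 genes), TMM factors (0.801 to 0.902 in control, 1.06 to 1.23 in MIA), the quasi-likelihood F test and Benjamini-Hochberg adjustment over all tested genes, called under 0.05. The coefficient of variation between rats that edgeR estimated over all genes was 36.7%. Log2 changes are MIA minus control; their SE was obtained as the absolute value over the root of F. On simulated data of 14054 genes, 6% of 100 genes changed 2-fold and 53% of 100 changed 4-fold were called, 7.81% of calls were false and 0 had the wrong direction. Lists of markers and related genes were matched by exact symbol. Promoter sequences are from RefSeq (GRCr8). Figures were made with Python 3.11.15, pandas 2.3.3 and matplotlib 3.10.9.

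The members and lists were chosen with earlier results of these data known. Values in every library are given for the 3 soluble, 3 membrane and 4 pump members with the smallest p, for Tfeb, for members called lower and for the least changed member of each class; from each wider list the 2 genes with the smallest p and up to 3 called lower are named. A gene that this rule selects is not reported here. For any other gene the text says how or when it was picked. Alternatives were library totals, median-of-ratios factors, scaling without muscle, blood and mitochondrial genes, a stromal scaling, DESeq2 1.42.0, limma-voom and limma on log2(FPKM + 1) (limma 3.58.1), no filter, at least 10 counts in every library, a replicate block, marker levels as covariates, and leaving out each library.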

Additional observations from a re-analysis of the deposited data

Results flagged for a closer look

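In 3 of the 30 members 1 MIA library stood apart from the other 3 by Dixon's criterion for 4 samples, each time MIA 2 and each time upward. Lamp2 was 276 CPM there, against 189 CPM in the next library. Mcoln1 was 33.2 CPM, against 27.7 CPM in the next, and Atp6v1h was 75.4 CPM, against 45.4 CPM. Chance flags about 1 group in 20, and members share this library. The skeletal muscle markers took 0.184% of the counts in MIA 2, the lowest share of the 7 libraries, and the macrophage markers were highest there; their part in these values was not tested.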

How the results depend on the processing

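The counts of members called higher (9), lower (3), and higher among soluble (5), membrane (2) and pump (2) members, and the member median (0.50), moved with scaling. Library totals gave 20, 1, 9, 3 and 8, and a median of 0.94. The stromal scaling gave 2, 5, 2, 0 and 0, and -0.13; 6 of its 19 genes were themselves called higher. Limma on log2(FPKM + 1) gave 17, 1, 8, 3 and 6. The muscle covariate gave 1, 1, 1, 0 and 0, and the macrophage covariate 0 for each count and a median of -0.34, with Gm2a at -0.53 and Tcirg1 at -0.32. Under that covariate Tfeb stood at -1.19 (adjusted p = 0.292), Atp6v0a1 at -0.73 (0.46), Atp6v1e1 at -0.68 (0.476) and Glb1 at 1.03 (0.341), so the first 3 lost their calls with values about as large as without it. With the muscle covariate Gaa (0.35), Laptm4b (0.14), Atp6v0e1 (0.203), Atp6v0e2 (0.108), Atp6v0a2 (0.206), Sort1 (0.0689), Vps33a (0.0638) and Ulk1 (0.124) were not called, all as adjusted p. The share of all calls that were higher was 52.1%, and 78.0%, 19.2% and 75.2% with totals, the stromal scaling and FPKM. With library totals Gaa (adjusted p = 0.263), Lmbrd1 (0.184), Sort1 (0.134), Vps33a (0.219) and Atp6v0e2 (0.0637) were not called, and with the stromal scaling Arsb (0.114), Laptm4b (0.5), Gga2 (0.155), Atp6v0e1 (0.358) and Atp6v0a2 (0.835). DESeq2 gave 11 and 3 members, and limma-voom 9 and 3. Leaving out 1 library gave 4 to 13 higher and 1 to 3 lower members, 3 to 6 soluble, 0 to 2 membrane and 1 to 5 pump members higher, and a median of 0.27 to 0.61. Numbers 2 to 4 occur in both groups, but deviations of same-numbered libraries correlated at 0.275, 0.0958 and 0.0299 and no label pairs them. With the replicate block, on control and MIA 2 to 4, 10 members were higher and 2 lower, with a median of 0.55. Atp6v1e1 (adjusted p = 0.0579), Gaa (0.105), Vps33a (0.0573) and Atp6v0a2 (0.0728) were not called and Atp6ap2 (0.0329) was; 4451 genes were called, against 5751. Of simulated 2-fold changes 6% were called. Only 200 genes were changed in that simulation, which makes the adjusted threshold stricter than in the data, where 5751 genes were called. How many changes of that size were missed in the data therefore cannot be read from it.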
